A study of Mus musculus with 3 samples.

Results

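The genes described here encode 5 small leucine-rich proteoglycans (Dcn, Lum, Bgn, Fmod and Ogn) and 5 adhesive or matricellular proteins (Fn1, Sparc, Postn, Tnc and Thbs1) of the fibroblast matrix. They were chosen by name, as every probe annotated to one of these symbols, with earlier results of these data known. This gave 12 probes for 10 genes out of 55681 gene probes and 35696 gene names on the array. Mouse embryonic fibroblasts (MEF) of the C57BL/6 strain, primary cells grown from minced embryos after removal of internal organs, legs and heads, were compared without treatment (control, labelled "none"), with 10 µg/ml (BP10) and with 40 µg/ml (BP40) of n-butylidenephthalide (BP), a compound of Angelica sinensis. The study describes the control as DMSO, whereas its label records no treatment, and the labels give no duration of exposure. Each condition was measured once, on a 1-colour (Cy3) Agilent array, so that every ratio below compares 2 arrays, there is no spread between cultures, and no p-value is given. A culture of this kind is a mixed population, and fewer cells of a type cannot be told apart from less RNA per cell.

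Small leucine-rich proteoglycans carry glycosaminoglycan chains on a core protein built of leucine-rich repeats, and they bind collagen fibrils and control how fibrils grow in width. Matricellular proteins are secreted into the matrix and act mainly on cell adhesion and growth factor activity rather than as scaffold, while fibronectin is the adhesive glycoprotein on which fibroblasts assemble other matrix proteins. Fibroblasts are a main source of both groups in connective tissue.

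The probe sequences are shown for the genes whose values set the pattern, and for both probes of the genes that had a pair. Each is the middle 30 bases (bases 16 to 45) of the 60-base probe as deposited, written 5′ to 3′ in the sense of the mRNA, with the hexamer AATAAA, the usual polyadenylation signal, in capitals. Positions are those of the array annotation on mm9, and the number after Sparc and Tnc is the base of the annotated transcript at which the probe starts.
Lum (chr10:97035210-97035269, plus strand): ttacttagtgaaacttttcttgagtcattt
Dcn (chr10:96980233-96980292, plus strand): gtctatgtgcgttctgccattcaacttgga
Bgn (chrX:70738554-70738613, plus strand): gattgagaatgggagcctgagttttctgcc
Postn (chr3:54194840-54194899, plus strand): ttcagaaaactcaaggtttaagttaaaagt
Sparc 1303 (chr11:55208939-55208998, minus strand): ggataaggtgctaacatagatttaactgaa
Sparc 2240 (chr11:55208003-55208061, minus strand): gcttgacaagtctttcaaAATAAAaagtaa
Tnc 2324 (chr4:63674248-63675011, minus strand): tttcgaaacatgggagatcattttccgaaa
Tnc 4602 (chr4:63643728-63643787, minus strand): ctcagagaggccactgagtacgaaattgaa
The probe Sparc 2240 was the 1 probe of the 12 (8.33%) that held AATAAA, a hexamer found in 10.1% of all gene probes. The 60 bases of Tnc 2324 covered 764 bases of the genome, so that this probe crosses a splice junction. Whether a probe lies in coding sequence or a UTR was not determined here.

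All values are log2 signals relative to the 75th percentile of the gene spots of the same array, so that a gene at 0 sits at that percentile. A gene was called higher or lower at a ratio of at least 2-fold, a log2 ratio of 1, provided that at least 1 of both arrays showed the probe well above background. All 12 probes were well above background on all 3 arrays and none was saturated by the flag of the scanner software, although the mean signals of Fn1, Thbs1 and Sparc 1303 exceeded the 16-bit maximum of 65535 on all 3 arrays. The 3 arrays shared 1 slide but were scanned in 2 sessions, the first for the control and the other for both BP arrays, so an effect of BP and one of the session cannot be told apart in any ratio against the control. The share of gene spots well above background was 81.7% for the control, 68.3% for BP10 and 69.1% for BP40. Among probes printed 10 times and above 0, the median SD between spots was 0.09 for the control, 0.05 for BP10 and 0.06 for BP40. Among genes with 2 probes and a mean level above 0, the median SD of the ratio between probes was 0.20 at BP10, 0.13 at BP40 and 0.16 between the doses. These SDs cover measurement error only.

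At BP10, 3 of the 10 genes were called, Bgn higher and Lum and Dcn lower, against 12.9% of all genes on the array (2.68% higher and 10.2% lower). At BP40, 2 of the 10 were called, Lum and Postn, both lower, against 11.6% of all genes (2.59% higher and 9% lower). Between BP40 and BP10, 0 of the 10 were called, against 3.66% of all genes (1.88% higher and 1.79% lower). The calls on the whole array came mostly from dim genes. Among genes with a mean level above 0, where all of the 10 except Lum lie, 2.2% were called at BP10 (0.602% higher and 1.6% lower), 1.75% at BP40 (0.858% and 0.895%) and 1.7% between the doses (1.18% and 0.52%). The median ratio of the 10 genes was -0.25 at BP10 and -0.33 at BP40, beside -0.10 and 0.06 for genes with a mean level above 0 and -0.23 and -0.11 for all genes. Both ratios against the control use the same control array, so they are given side by side and not as separate evidence.

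**Figure D1:**
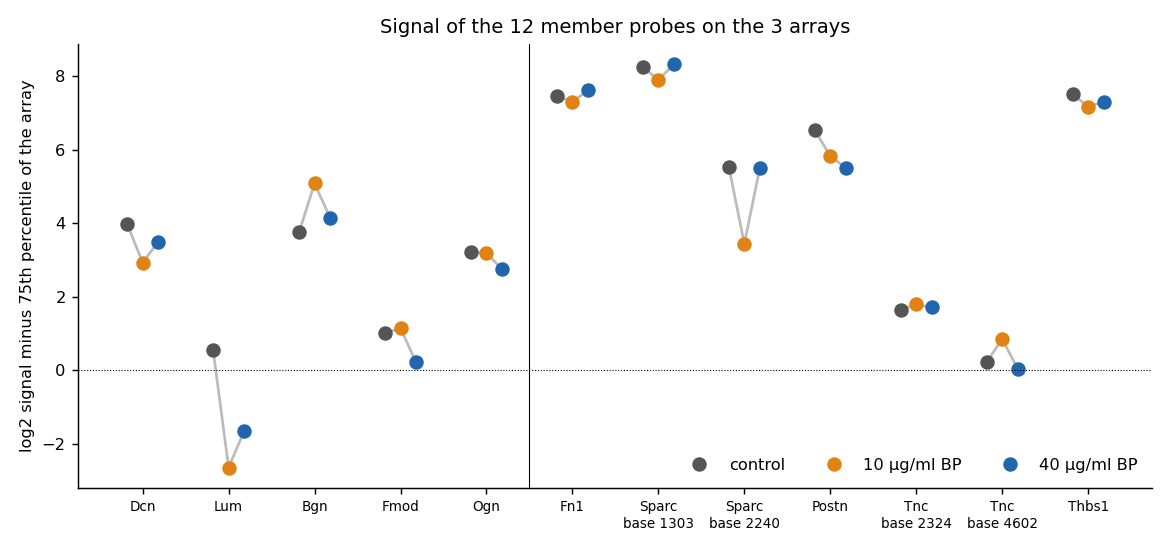
Log2 signal minus the 75th percentile of the array for each of the 12 probes (1 point per array; control grey, 10 µg/ml BP orange, 40 µg/ml BP blue), with proteoglycans left and adhesive or matricellular proteins right of the vertical line. Lum drops from 0.54 to -2.65 at BP10 and -1.66 at BP40, Bgn is highest at BP10, and Sparc 2240 dips at BP10 while Sparc 1303 hardly does (log2 ratios -2.09 and -0.36).

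Lum, which encodes lumican, a keratan sulfate proteoglycan needed for evenly spaced collagen fibrils in cornea and skin, showed the largest ratios of the 10 genes. Its level was 0.54 in the control, -2.65 at BP10 and -1.66 at BP40. The processed signals behind these levels were 2543, 223 and 383. Both BP arrays lay far below the control, and the lower of them was the one with less BP. The ratio was -3.19 at BP10, 9.15-fold lower, and -2.21 at BP40, 4.62-fold lower. Among the 25033 genes well above background on all 3 arrays, Lum had the lowest ratio but 1 at BP10 and the 32nd lowest at BP40. Compared with the 2622 genes whose mean level lay within 0.5 of its own, its ratio was the lowest at both doses, beside medians of -0.17 and -0.11. BP40 exceeded BP10 by 0.99, or 1.98-fold, just under the 2-fold threshold.

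Dcn, which lies next to Lum on chromosome 10, encodes decorin, the dermatan or chondroitin sulfate proteoglycan that binds collagen fibrils and TGF-beta. Its level was 3.98 in the control, 2.93 at BP10 and 3.49 at BP40. BP10 was the lowest array, as for Lum, although for Dcn the ratio of BP40 to BP10 turned from 0.56 to -0.21 when arrays were scaled on spike-in probes. The ratio was -1.05 at BP10, 2.07-fold lower, and -0.49 at BP40, which was not called. Of 1704 genes of similar mean level, Dcn included, 18 had a ratio this low or lower at BP10 and 86 at BP40. The call at BP10 sat at the threshold, at -0.96 when arrays were scaled on spike-in probes and at -0.94 when the median ratio at each brightness was subtracted.

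Bgn, on the X chromosome, encodes biglycan, the closest relative of decorin, which can also signal through toll-like receptors when released. Its level was 3.76 in the control, 5.08 at BP10 and 4.15 at BP40. Unlike Lum and Dcn, its highest value was on the BP10 array. The ratio was 1.33 at BP10, 2.51-fold higher, and 0.39 at BP40. Of 1231 genes of similar mean level, Bgn and 1 other reached this ratio at BP10. The ratio at BP40 turned to -0.29 when arrays were scaled on spike-in probes, so no direction is given for it. BP40 lay below BP10 by a log2 ratio of -0.93, a ratio that 8 of the 1231 genes had or went below.

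Fmod and Ogn had no call. Fmod encodes fibromodulin, a keratan sulfate proteoglycan that guides collagen cross-linking, and its level was 1.01 in the control, 1.14 at BP10 and 0.23 at BP40. The control and BP10 arrays were close together for Fmod, with BP40 lower. Its ratios were 0.12 at BP10, -0.79 at BP40 and -0.91 for BP40 against BP10, and 30 of 2219 genes of similar mean level had a ratio this low or lower in the last comparison. Ogn encodes osteoglycin, also called mimecan, and its level was 3.21 in the control, 3.19 at BP10 and 2.75 at BP40. Its ratios were -0.02, -0.46 and -0.44 in the same order. For both genes, BP40 was the lowest of the 3 arrays, whereas for Lum BP10 was the lowest.

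**Figure D2:**
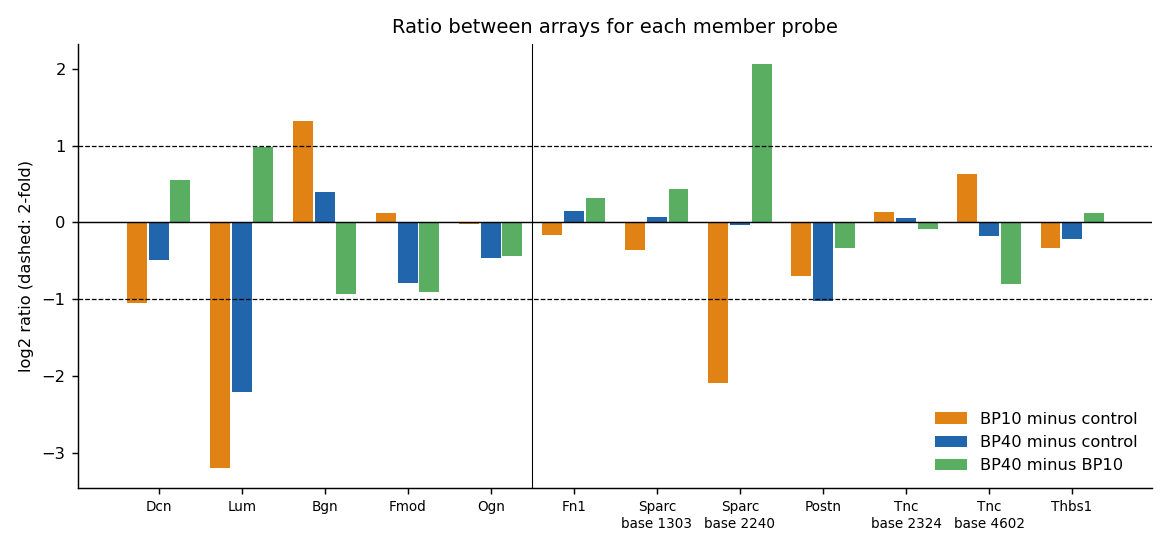
Log2 ratio of each of the 12 probes for BP10 minus control (orange), BP40 minus control (blue) and BP40 minus BP10 (green), with dashed lines at 2-fold. Lum passes the lower line at both doses, Bgn passes the upper line at BP10, and 1 of the 2 Sparc probes moves at BP10 (-2.09) but hardly at BP40 (-0.03).

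Of the adhesive and matricellular group, Postn was the gene called, at BP40. Postn encodes periostin, which binds collagen and fibronectin and promotes collagen cross-linking. Its level was 6.53 in the control, 5.83 at BP10 and 5.50 at BP40. Here the levels were in order of dose, with BP40 the lowest. The ratio was -0.70 at BP10 and -1.03 at BP40, 2.04-fold lower. Of 547 genes of similar mean level, 30 had a ratio this low or lower at BP10, and Postn and 1 other at BP40. The mean spot signal exceeded 65535 on 2 of the 3 arrays.

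Sparc encodes osteonectin, a collagen-binding matricellular protein, and its probes disagreed. By Sparc 1303, used for the gene in the counts above, the level was 8.26 in the control, 7.90 at BP10 and 8.33 at BP40, with ratios of -0.36 at BP10 and 0.07 at BP40. By Sparc 2240, the probe with the AATAAA hexamer, the level was 5.53, 3.44 and 5.50 in the same order. The mean spot signal of Sparc 2240 exceeded 65535 on the control array alone. This probe was low on BP10 alone, where its ratio was -2.09, 4.26-fold lower. It differed by -0.03 at BP40, and BP40 exceeded BP10 by 2.06, 4.17-fold. The SD of the ratio between the probes was 1.23 at BP10, 0.07 at BP40 and 1.15 between the doses, where 95% of genes with 2 probes and a mean level above 0 had an SD under 0.66, 0.48 and 0.54. The ratio of Sparc 2240 at BP10 lay between -2.14 and -1.97 under the other scalings and background corrections. With the median of both probes, Sparc was at -1.22 at BP10 and 1.25 between the doses, past 2-fold in both. The cause of the disagreement was not tested, and the change of Sparc at BP10 is uncertain.

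Tnc encodes tenascin-C, which modulates adhesion to fibronectin and is abundant in embryonic mesenchyme. By Tnc 2324, used for the gene, the level was 1.65 in the control, 1.79 at BP10 and 1.71 at BP40, and by Tnc 4602 it was 0.22, 0.85 and 0.05. The first probe hardly differed between the arrays, with ratios of 0.14 at BP10 and 0.06 at BP40. The second had ratios of 0.62, -0.18 and, for BP40 against BP10, -0.80. Neither probe passed 2-fold in any of the 3 comparisons.

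Fn1 encodes fibronectin, and its level was 7.47 in the control, 7.30 at BP10 and 7.62 at BP40. Thbs1 encodes thrombospondin-1, which can activate latent TGF-beta, and its level was 7.51, 7.17 and 7.30 in the same order. The 3 arrays lay close together for both genes. The ratios of Fn1 were -0.17 at BP10 and 0.15 at BP40, and those of Thbs1 were -0.34 and -0.21. Over all settings, Fn1 ran from -0.61 to 0.07 at BP10 and from -0.53 to 0.15 at BP40, so no direction is given for it. Among the 983 genes with a mean level above 6, the medians were -0.22 and 0.08. Of 462 genes with a mean level similar to that of Thbs1, 65 had a ratio as low or lower at BP40.

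**Figure D3:**
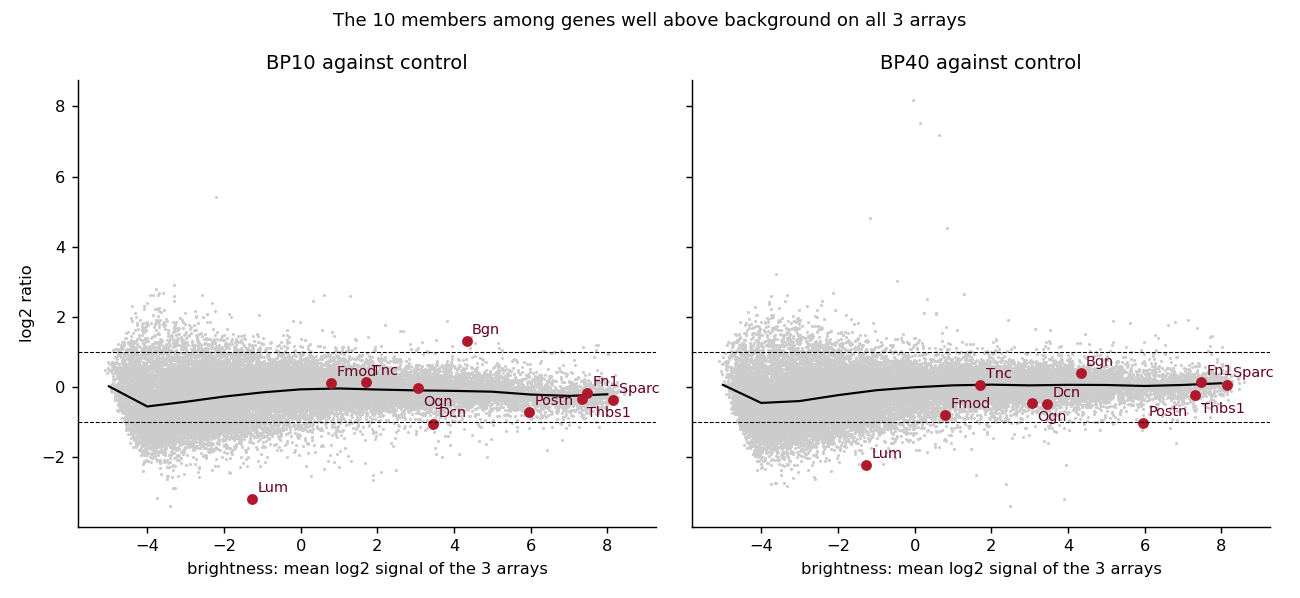
Log2 ratio against mean log2 signal of the 3 arrays for the 25033 genes well above background on all arrays (grey), with the 10 genes (red) and 2-fold (dashed), for BP10 (left) and BP40 (right). The black line joins the medians of these 25033 genes in separate bins of mean signal. Lum lies below every gene of similar signal in both panels, Bgn near the top of its signal range at BP10 and Postn at the bottom of its range at BP40.

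Genes of this proteoglycan family stand in rows on the chromosomes, and their neighbours were read in the order of the RefSeq annotation. On chromosome 10, Dcn and Lum are followed by Kera and Epyc, which were not well above background on any array and gave no usable ratio. On chromosome 13, Ecm2 was at -1.07 at BP10 and -0.62 at BP40, Aspn at -0.24 and -0.74, Omd at 0.03 and -1.36, and Ogn, the last of the row, at -0.02 and -0.46. On chromosome 1, Optc was at -0.43 and -0.51 and Prelp at -0.65 at BP10. At BP40, Prelp was not well above background, and its measured ratio, 2.89-fold lower, is uncertain. The third gene of that row is Fmod, at 0.12 and -0.79. At BP40, Lum and Omd were the genes past 2-fold among those of the 3 rows above background on all arrays. Within a row the ratios were unequal.

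**Figure D4:**
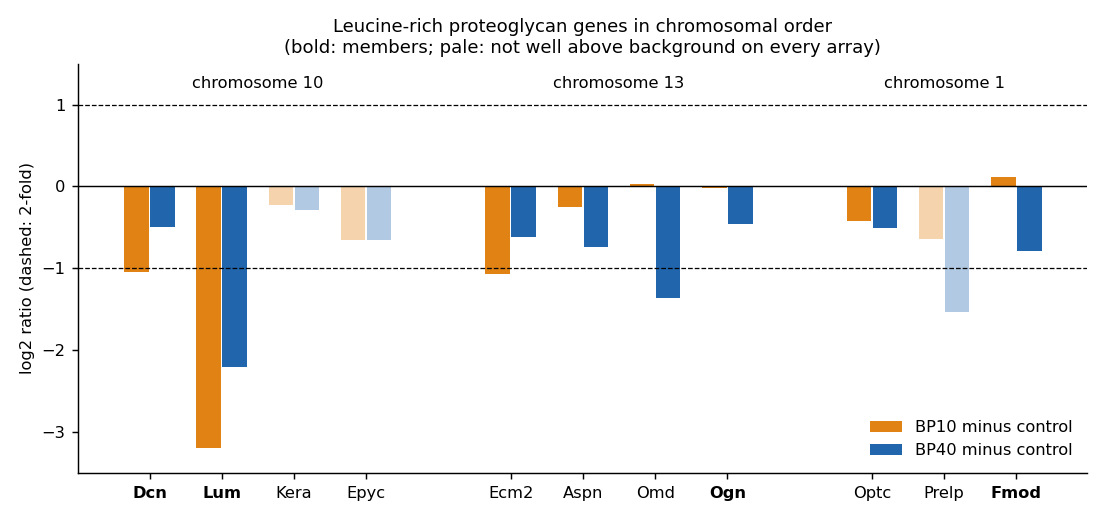
Log2 ratios for BP10 minus control (orange) and BP40 minus control (blue) of the leucine-rich proteoglycan genes in their order on chromosomes 10, 13 and 1, with dashed lines at 2-fold, the members of the group in bold and genes not well above background on every array in pale bars. Lum at -3.19 and -2.21 stands beside Dcn at -1.05 and -0.49, and Omd at -1.36 beside Ogn at -0.46 at BP40.

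Among 13 other leucine-rich proteoglycans, 3 were called lower at BP10 and 2 at BP40, and 0 were called higher. Those at BP10 were Podn (-1.35), Chad (-1.15) and Ecm2 (-1.07), and those at BP40 were Omd and Prelp, the latter not well above background at BP40. Podn, Chad and Prelp are named here after their values were seen. Chad, Ecm2 and Omd are dim, with a mean level between -4 and -2. Of all genes in that range, 26.4% were called at BP10 and 25.6% at BP40. The median ratios of that range were -0.42 and -0.39. Omd, which encodes osteomodulin, a keratan sulfate proteoglycan of bone, also fell by 1.39 on the log2 scale from BP10 to BP40. Aspn, encoding asporin, stayed under 2-fold in all 3 comparisons. The median over the 8 of them well above background on all arrays was -0.66 at BP10 and -0.68 at BP40, and over all 13, with genes below background on 1 of the 2 arrays set at their bound, it was -0.45 and -0.62.

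Large and cell-surface proteoglycans moved in both directions at BP10. Of 21 genes, 2 were called higher, Gpc2 (1.81) and Cspg4 (1.61), and 3 lower, Tgfbr3 (-1.47), Gpc3 (-1.21) and Gpc5 (-1.08), where the second probes of Gpc3 and Gpc5 were not well above background on any array; Gpc5 was named after its value was seen. Gpc2 was dim, with a mean level between -6 and -4, where 25.7% of all genes were called at BP10. Gpc5 lay between -2 and 0, where the share was 11.9%. Cspg4 encodes NG2, a proteoglycan of pericytes and progenitor cells, and Tgfbr3 encodes betaglycan, a co-receptor for TGF-beta. At BP40, 0 of the 21 were called. From BP10 to BP40, Cspg4 fell by 1.11 on the log2 scale, Gpc2 was at least 2.78-fold lower and Tgfbr3 was 1.19 higher. Hspg2, which encodes perlecan, was at 0.34 at BP10 and 0.19 at BP40, and its second probe, well above background on all arrays, at 0.85 and 0.26. The median over the 19 well above background on all arrays was -0.28 at BP10 and -0.26 at BP40. Over all 21 with bounds it was -0.048 and -0.093. There Bcan, detected on the control array alone, had a bound of the opposite sign and entered at 0, so that it gave no ratio of its own.

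Of 28 enzymes that build or sulfate glycosaminoglycan chains, 1 was called lower at BP10, Csgalnact1 (-1.28), which starts chondroitin chains, and 1 at BP40, Chst3 (-1.01), a chondroitin sulfotransferase. Both were named after their values were seen, as was Chst15. Chst3 was dim, with a mean level between -4 and -2, where 25.6% of all genes were called at BP40. A second probe of Chst15, well above background on all 3 arrays, was at -1.21 and -1.46, where the probe used was at 0.61 and 0.34. The list median was -0.07 at BP10 and -0.04 at BP40. Chpf, a chondroitin polymerizing factor, was at -0.20 and 0.44.

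The 22 other matricellular genes gave 1 call higher and 4 lower at BP10, and 2 higher and 3 lower at BP40. Tgfbi, which encodes a TGF-beta-induced, collagen-binding adhesion protein, was the 1 gene of the 6 lists of relatives called the same way at BP10 and at BP40, at -1.54 and -1.15. At BP10 the other calls were Smoc1 (2.01), Thbs4 (-1.98), Tnxb (-1.18) and Spock1 (-1.03), and Tnxb was named after its value was seen. At BP40 they were Tnr (1.52), Comp (1.12), Ccn3 (-1.30) and Ccn5 (-1.11). Tnxb and Comp had a mean level between -4 and -2, where 26.4% of all genes were called at BP10 and 25.6% at BP40. Tnr had one between -6 and -4, where 22.5% were called at BP40. Smoc1, Thbs4, Spock1 and Ccn3 had one between -2 and 0, where 11.9% were called at BP10 and 9.48% at BP40. Between the doses 4 were called higher at BP40, Tnr (at least 4.93-fold), Comp (1.44), Spock1 (1.32) and Thbs4 (1.18), and 3 lower, Smoc1 (-1.74), Ccn5 (-1.23) and Ccn3 (-1.09). A second probe of Spock1 was well above background on 1 of the 3 arrays and is not used. Fstl1, a secreted relative of Sparc, was at -0.24 and 0.21. The list median was -0.28 at both doses.

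Among 28 fibulins, fibrillins and other matrix glycoproteins, 2 were called lower at BP10, Matn4 (-1.32) and Vtn (-1.08), and 4 at BP40, Efemp1 (-1.35), Eln (-1.08), Nid2 (-1.05) and Fbn2 (-1.01). Vtn and Matn4 were dim, with mean levels between -6 and -4 and between -4 and -2. Of all genes in these ranges, 25.7% and 26.4% were called at BP10. Eln lay between -2 and 0, where 9.48% were called at BP40. Second probes of Matn4 (-0.66 at BP10, above background on 2 arrays) and Fbn2 (-0.86 at BP40) stayed under 2-fold. Second probes of Ecm1 (1.44 at BP10) and Fbln5 (-1.80 at BP40) passed 2-fold where the probes used did not (0.36 and -0.06). In this list, all but Eln were named after their values were seen. Eln encodes tropoelastin and also fell by 1.13 on the log2 scale from BP10 to BP40. Fbln2, encoding fibulin-2, was at -0.02 and -0.11. The list median was -0.32 at BP10 and -0.51 at BP40. Of 19 receptors for these proteins, 0 were called at BP10 and 1 at BP40, Itga4, a fibronectin receptor subunit, at -1.82 by the probe used, while its other probe was well above background on only 1 of the 3 arrays and gave no usable ratio. Itgb5, a vitronectin receptor subunit, was at -0.38 and -0.18.

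**Figure D5:**
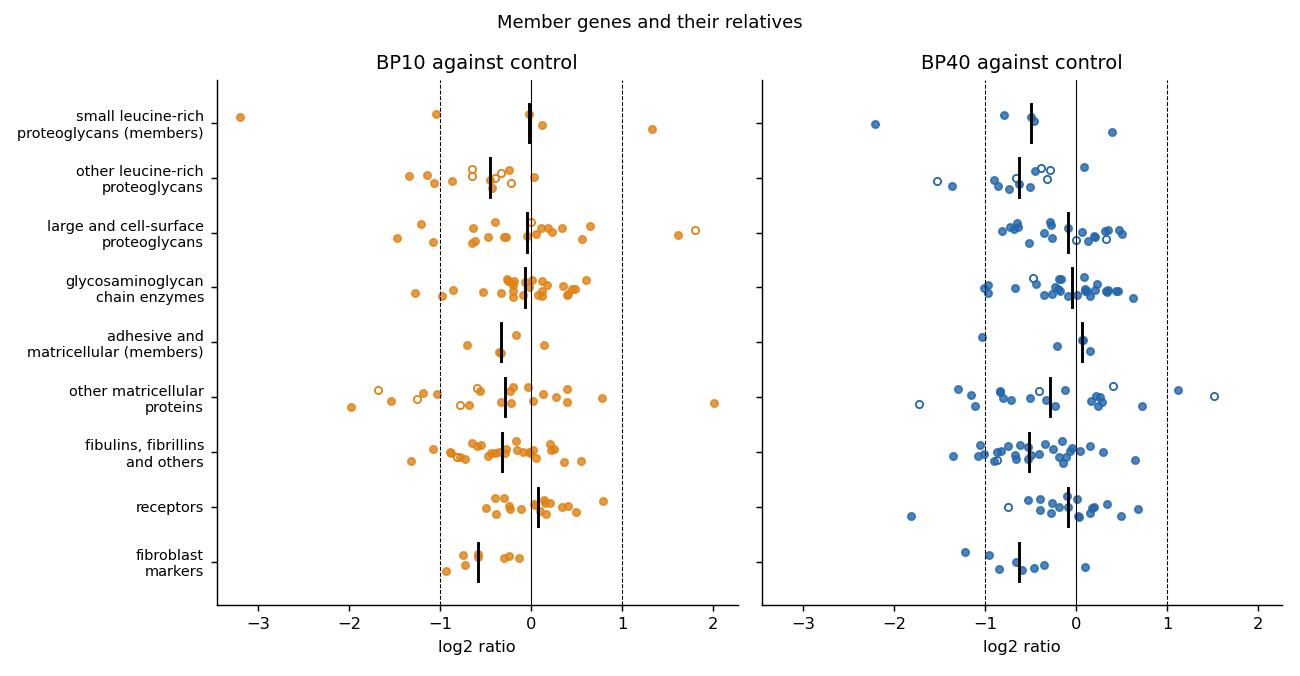
Log2 ratio of each gene in the 2 groups of members, the 6 lists of relatives and the fibroblast markers at BP10 (left) and BP40 (right), where open circles are genes not well above background on every array, black bars are medians with such genes at their bound, dashed lines are 2-fold and vertical scatter is for display. The ratios of Lum at the left edge stand apart from the other proteoglycans, and Itga4 at BP40 (-1.82) is the receptor past 2-fold.

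Likeness of pattern was measured as the distance between pairs of log2 ratios against the control, over the 3 arrays and 116 candidate genes of the lists of relatives. The genes nearest to Dcn were Ecm2 (distance 0.13) and Gpc3 (0.21), those nearest to Bgn were Cspg4 (0.31) and Itga5 (0.61), and those nearest to Postn were Mfap4 (0.16) and Chst13 (0.17), whose second probe, above background on 2 arrays, had the opposite sign at BP10 (1.16 against -0.86). Ecm2 and Chst13 are dim, with a mean level between -4 and -2, where the median ratios of all genes were -0.42 at BP10 and -0.39 at BP40. Lum had no near neighbour, with Thbs4 at 1.86 and Tgfbi at 1.96. A pattern over 3 arrays has few ways to differ, so these distances are a description of these arrays.

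The cells were checked by markers. All 8 fibroblast markers (Col1a1, Col1a2, Col3a1, Pdgfra, Pdgfrb, Thy1, Vim and S100a4) were well above background on all 3 arrays, and their median ratio was -0.58 at BP10 and -0.63 at BP40. Of the 8, Col3a1 was called, at BP40 (-1.22). Over the markers of other cell types that were well above background on all arrays, the median ratio was 0.14 and 0.13 for smooth muscle and myofibroblast markers, -0.14 and -0.02 for cartilage markers, -0.37 and -0.30 for macrophage markers, -0.36 and 0.04 for endothelial markers and 0.07 and -0.61 for epithelial markers. In the order of these lists, 5 of 5, 4 of 6, 6 of 6, 3 of 5 and 3 of 5 markers entered the medians. The endothelial Cdh5 and Tie1 and the epithelial Epcam and Cdh1 were not well above background on any array. The part of these shifts in the ratios of Lum, Dcn and Postn was not tested.

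RefSeq promoter sequences (GRCm38.p6, the 250 bases before the start) were found for 6 of the 10 genes, in 8 windows, and those of the gene called higher and of 1 of the genes called lower are shown, in lower case with motif matches on either strand in capitals. The motifs searched were TATAAA, known as the TATA box, GGGCGG, known as the GC box, the AP-1 site in the form TGANTCA, and the CAAT box in the form CCAAT.
Bgn (chrX:73483351-73483600, plus strand): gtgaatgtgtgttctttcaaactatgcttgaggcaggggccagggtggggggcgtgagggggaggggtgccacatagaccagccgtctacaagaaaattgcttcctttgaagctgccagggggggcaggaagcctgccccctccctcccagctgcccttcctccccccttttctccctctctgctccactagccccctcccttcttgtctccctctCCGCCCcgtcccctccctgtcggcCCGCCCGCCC
Postn (chr3:54360857-54361106, plus strand): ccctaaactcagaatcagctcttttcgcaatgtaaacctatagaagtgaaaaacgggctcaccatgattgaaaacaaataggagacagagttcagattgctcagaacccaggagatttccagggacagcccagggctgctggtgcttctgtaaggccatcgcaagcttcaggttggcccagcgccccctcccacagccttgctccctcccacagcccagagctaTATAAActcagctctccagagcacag
The Bgn window was rich in GC (64.4%, against a median of 52.4% over all promoters) and held 3 matches to the GC box on the reverse strand, the last 2 of which overlap. The other Postn window had a GC content of 40.4% and 0 matches. The Postn window shown had a GC content of 52% and held 1 TATA box, whose first base lay 26 bases before the start. Of 32851 promoters of the same length, 32.7% held GGGCGG, 12.4% TATAAA, 33.8% CCAAT and 6.75% TGANTCA. The matches are a description of these windows.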

How the data were processed

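Each of 3 Agilent mouse arrays measured Cy3-labeled total RNA of 1 condition, namely untreated MEF, BP10 or BP40. The authors deposited the scanner output (Feature Extraction 10.5.1.1), whose processed intensity per spot was corrected for background on each array, without scaling from array to array. The series table that was also deposited held the same intensity values (100% of spots, relative tolerance 0.0001), and 0 columns had no sample. The scanner software's own flags marked spots as well above background, saturated or outlying. The number of arrays limits the precision.

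From the intensity, log2 was taken and the 75th percentile of gene spots not flagged as outliers subtracted. Spots of a probe were averaged. Probes were named by the RefSeq symbol of their accession (26425 probes, 47.5%), otherwise by the deposited name. A gene with several probes was represented by the probe detected on the most arrays and, among equals, the brightest one, and every probe of the 10 genes was also reported. A probe below background on 1 of the 2 arrays compared has a bound, for which the dim value was raised to the lowest detected signal of that array where it lay below it. Where this reversed the sign of the ratio, the probe gave no ratio and was set at 0. List medians include dim genes unless stated. Calls were set at 2-fold, with no test, since each condition has 1 array. Calling was tested on simulated data.

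The named genes were the 10 members, relatives called the same way at BP10 and at BP40, relatives called between the doses, the relative with the strongest control signal in each list, and the 2 relatives nearest in pattern to each called member. The members and lists were chosen with earlier results of these data known. Alternatives were other thresholds, filters, scalings, a normexp background correction (offset 50), quantile normalization and the median of all probes. The software was R 4.3.3 with limma 3.58.1 and Python 3.11.15 with matplotlib 3.10.9, numpy 2.4.6 and pandas 2.3.3. The calls of the methods' own software were not used here.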

Additional observations from a re-analysis of the deposited data

How the results depend on the processing

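Of 240 ratios of single genes recomputed under other settings, 186 stayed within the spread between probes and 54 moved, and 0 called values changed sign. Part of those that stayed could not have moved. The deposited series table holds the same intensities, and the median over all probes leaves the 8 genes with 1 probe as they were. At 3-fold, 1 gene was called at BP10 and 1 at BP40, and at 1.5-fold 3 were called between the doses. The share of all genes called at these thresholds is not given here, so the counts are not read as a result about the 10 genes. Between the doses, 1 gene was called with quantile normalization, 1 with scaling on probes well above background on all arrays, 1 with the median over all probes of a gene and 1 with the median ratio at each brightness subtracted. Of all genes, 3.33% were called between the doses with quantile normalization and 3.67% with scaling on probes well above background. With the median over all probes, and with the median ratio at each brightness subtracted, this share is not given here. Those counts are therefore not read as a result about the 10 genes. The median ratio of the 10 genes was -0.019 at BP10 and -0.18 between the doses with quantile normalization, and -0.027 and -0.20 with the brightness trend subtracted. That last alternative and the scaling on 7 E1A spike-in probes were chosen after seeing the data. Relative to the 75th percentile, the spike-ins were at a mean log2 ratio of -0.09 at BP10, 0.68 at BP40 and 0.77 between the doses. With scaling on them, 5 genes were called at BP40 with a median of -1.02, and 4 between the doses with a median of -0.74, because this scaling moved all genes by -0.68 and -0.77. Of all genes, 29.9% were called at BP40 and 16.8% between the doses with this scaling. The cause of the spike-in offset was not tested. Lum stayed between -3.21 and -2.81 at BP10 and between -2.89 and -2.02 at BP40, Bgn between 1.26 and 1.46 at BP10, and Postn between -1.71 and -1.03 at BP40 under all settings. At BP10 and BP40, the all-gene median moved by 0.17 and 0.10 with quantile normalization and by 0.15 and 0.18 with normexp. The share of all calls that were higher, 20.8% at BP10, 22.3% at BP40 and 51.2% between the doses, was 52.8%, 56.5% and 49.4% with quantile normalization, 32.9%, 46.3% and 56.6% with normexp, and 27.6%, 2.01% and 2.13% with spike-in scaling. No paired analysis was possible because there was only 1 array for each condition.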
